A study of Gallus gallus with 8 samples.

Results

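The genes described here are 43 genes put forward as genes of the chicken Z chromosome, found by symbol in a table of 15873 genes from embryonic hearts. Of these, 32 had a row under the listed symbol, and GHR had 2 rows. With the 1 RPKM filter (reads scaled to gene length and library size, at least 1 in at least 2 libraries) 32 rows of 31 genes remained among 11556 genes. The GRCg7b gene table places 38 of the 43 symbols on Z. BAG1, INVS and TGFBR1 are on chromosome 2 in that table, and NIPBL and ZFR have no Z entry under those symbols. The data for BAG1 and INVS are therefore given apart, and the Z-linked members tested were 30 rows of 29 genes. PRLR, the prolactin receptor, was the gene that failed the filter.

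Messenger RNA was sequenced from heart tissue of embryos at 16 days of incubation, with 2 libraries from each of 4 breeds: Linzhi Tibetan, Lhasa White, Chahua and White Leghorn (written White leghom in the labels). The breeds Linzhi Tibetan and Lhasa White are taken here as highland and the other two as lowland, from their names, because the labels give no altitude. No treatment, sex or number of embryos is given. The p-values therefore reflect only how far the libraries vary, part of which may be technical. Mapped reads, recovered from the steps of the RPKM values, ran from 17245669 to 22157553 per library. The libraries were divided by transcripts of the W chromosome. ATP5A1W, a W-linked copy of an ATP synthase subunit, lay at 398, 445, 496 and 409 RPKM in Lhasa White 2, Chahua 1, Chahua 2 and White Leghorn 1, called W-positive here. It lay at 0.0774, 0.355, 4.02 and 0.241 RPKM in Linzhi Tibetan 1, Linzhi Tibetan 2, Lhasa White 1 and White Leghorn 2, called W-negative. This division comes from values in the same libraries and not from a label, and it uses no Z-linked gene. It also overlaps with breed, since both Linzhi Tibetan libraries are W-negative and both Chahua libraries W-positive. TNNT2, cardiac troponin T, was at 5502 to 8848 RPKM. In Lhasa White 2 and Chahua 2, both W-positive, the atrial myosin MYH7 stood at 1457 and 115 RPKM, against 0.878 to 7.07 in the other libraries. Of the other atrial markers, BMP-10 was also highest there, at 289.7 and 22.4 RPKM against 0.745 to 3.93. NR2F2 was highest there too, at 66.4 and 40.2 RPKM against 28.3 to 33.6. TBX5 was not, at 89.1 and 41.8 RPKM against 43.0 to 109.9. NPPA was at 1286 to 2717 RPKM in all libraries, with 1690 and 2419 in these. The ventricular markers summed lowest in Lhasa White 2, at 10736 RPKM, and highest in Chahua 2, at 24391 RPKM.

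In birds, females carry a Z and a W chromosome and males carry a pair of Z chromosomes. No chromosome-wide silencing of the kind known from the mammalian X has been found in birds. Compensation for the unequal number of Z copies is instead gene by gene and partial, so that a Z-linked gene may be anywhere between equal in the sexes and fully dosage dependent. Some Z-linked genes keep a diverged copy on W, whose transcripts add to the female total and may share sequence with the Z copy. A stretch of Z near DMRT1, the male hypermethylated region, is known for a noncoding RNA made in females and for local differences in compensation.

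The ratio of W-negative to W-positive libraries asks how far each gene's level follows the presumed number of Z copies. Of the 30 Z-linked rows, 22 were higher in W-negative libraries and 8 lower, where 45.4% of all genes and 81.5% of other Z-linked genes were higher. XPA, XRCC4 and APTX, which act in DNA repair, and HSD17B4, an enzyme of peroxisomal fatty acid oxidation, were higher in W-negative libraries and passed the test, and 0 members passed in the other direction. The share called higher among all 11556 genes was 0.632%, and the share called lower 0.346%. The median log2 difference of the 30 rows was 0.31, with quartiles of 0.01 and 0.56. It was 0.36 over 427 other Z-linked genes, of which 60 passed as higher and 2, BTF3 and SLC1A1, as lower. The BTF3 row, placed on Z by symbol, was nearly absent from W-negative libraries, like the W-linked rows. Over 9182 autosomal genes the median was -0.03, and 0 passed as higher and 1 as lower. Differences are on the log2(RPKM + 1) scale, which understates the change of low genes, and the test was limma across all genes with Benjamini-Hochberg adjustment at 0.05. At an unadjusted p under 0.05 stood 13 of the members, 12 higher and 1 lower, against 5.66% of all genes. All 4 called members were higher under each of 18 alternative settings, and with 1 library left out the log2 differences were 0.96 to 1.14 (XPA), 0.68 to 0.83 (XRCC4), 0.60 to 0.73 (APTX) and 0.53 to 0.64 (HSD17B4). Without Linzhi Tibetan 2, 0 members and 36 of all genes passed as higher, with a limma adjusted p of 0.0542 for XPA. XPA passed without each of the other 7 libraries in turn, XRCC4 and HSD17B4 in 2 of the 8 such fits and APTX in 1, and without Linzhi Tibetan 1 SMC2 passed as well (adjusted p = 0.0406).

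As ratios of mean RPKM, the Z-linked members spread from 0.411 to 2.06 with a median of 1.26. At 1.5 or more stood 9 of the 30 rows, against 34.7% of other Z-linked genes and 3.42% of all genes, and 1 of them, XPA, was above 2. Another 6 lay between 1.25 and 1.5, 12 between 0.8 and 1.25, and 3 at 0.8 or less. Among the last, MLLT3 passed the filter only through W-positive libraries. Among those at 1.5 or more, the scarcer GHR row (ratio 1.64) reached 1 RPKM on the W-positive side in White Leghorn 1 only. It would not have passed the filter without W-negative libraries. More rows thus lay between 0.8 and 1.25 than at 1.5 or more. That middle range held 40% of the member rows, 34.2% of other Z-linked genes and 77.9% of all genes. All W-negative libraries exceeded all W-positive ones in 11 rows, and the reverse held in 2, where the shares over all genes were 2.23% and 1.43%. Over other Z-linked genes these shares were 34.0% and 1.405%.

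**Figure D1:**
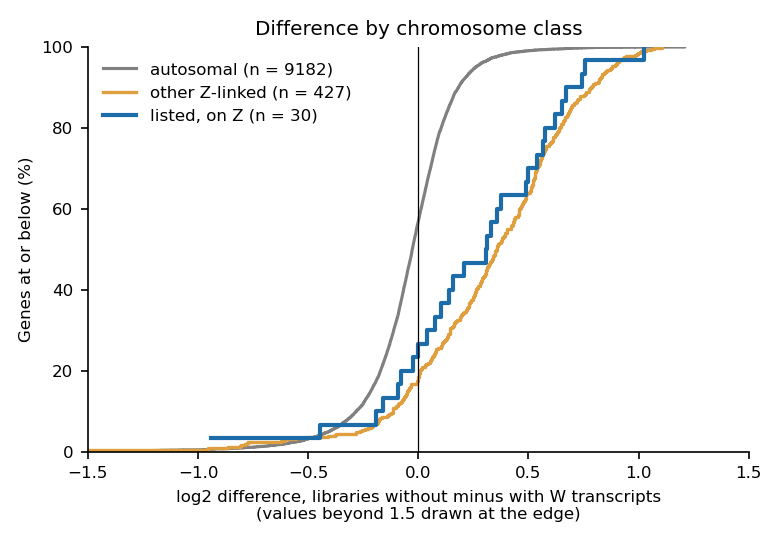
Cumulative share of genes (percent, y axis) by log2 difference between W-negative and W-positive libraries (x axis) for autosomal genes, other Z-linked genes and the listed genes on Z. The listed genes, with a median of 0.31, run beside the other Z-linked genes (0.36) and to the right of the autosomal genes (-0.03).

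By library, the median deviation of the 30 rows from each gene's own mean was 0.11 and 0.18 for Linzhi Tibetan 1 and 2, 0.16 for Lhasa White 1 and 0.05 for White Leghorn 2 (log2). The W-positive libraries had -0.12 (Lhasa White 2), -0.35 and 0.05 (Chahua 1 and 2) and -0.17 (White Leghorn 1). Chahua 2 was thus the W-positive library whose members were not below their mean, and for the members it stood level with White Leghorn 2. Other Z-linked genes were not level, with medians of 0.00014 in Chahua 2 and 0.12 in White Leghorn 2. For autosomal genes these libraries had 0.05 and -0.02. Autosomal genes had medians between -0.09 (Chahua 1) and 0.05 (Lhasa White 2 and Chahua 2), so Chahua 1 was low on autosomes as well, though less so.

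**Figure D2:**
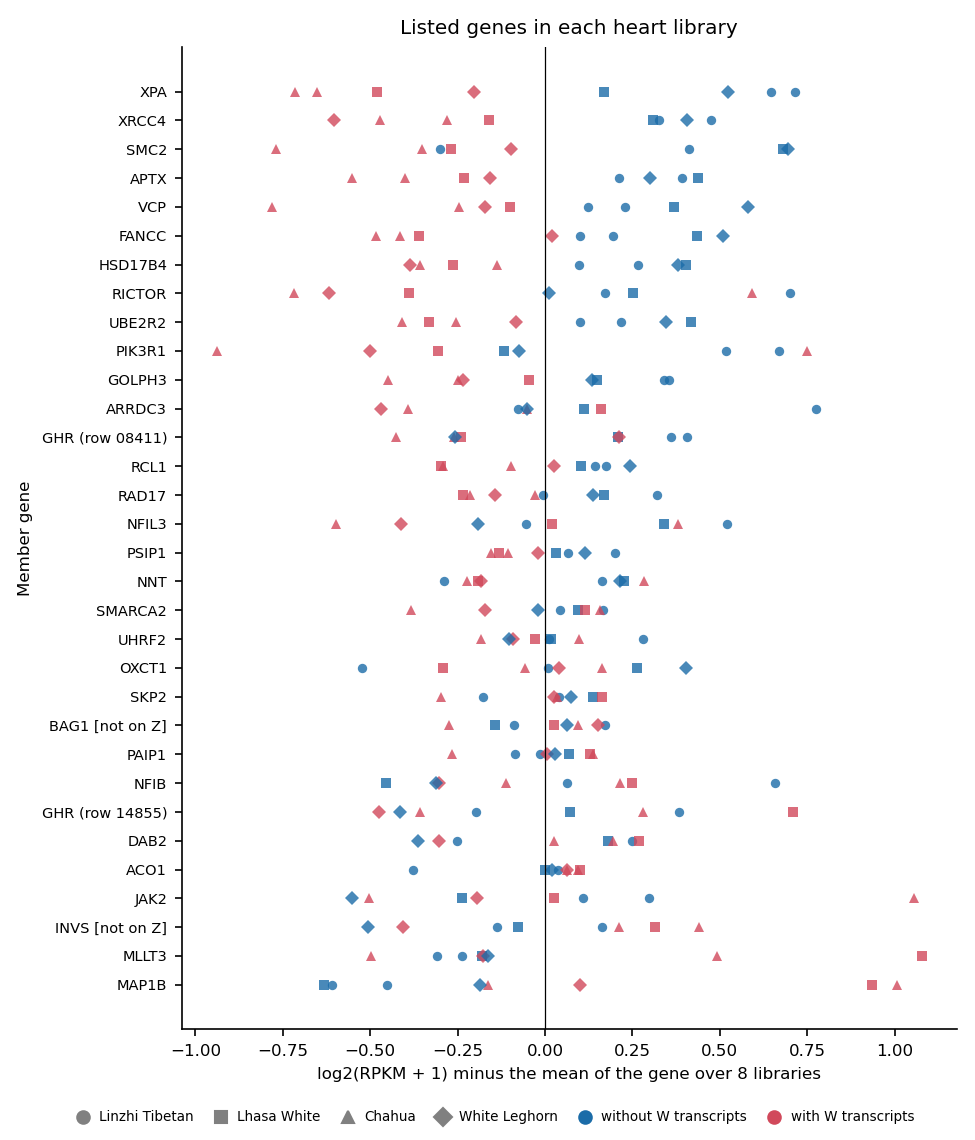
Each listed gene (y axis, sorted by the difference between W-negative and W-positive libraries) in each library, as log2(RPKM + 1) minus the gene's mean over 8 libraries (x axis). Shape gives the breed and colour the presence of W transcripts. Blue points stand to the right of red ones at the top, from XPA to HSD17B4 apart from SMC2, and the colours mix or turn round at the bottom, where MAP1B is lowest.

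The 5 DNA repair genes were all higher in W-negative libraries, with a median log2 difference of 0.67, and 3 of them passed. Of the 427 other Z-linked genes, 81.5% were higher and 60 passed as higher. XRCC4, RAD17 and APTX lie in the ninth of 10 bins of equal gene number along Z. In that bin the median was 0.50 over 46 genes, and 15 passed as higher. Whether role or place on Z goes with the difference was not tested. XPA, which verifies damage in nucleotide excision repair, was at 92.2, 87.8, 62.7 and 80.6 RPKM in Linzhi Tibetan 1 and 2, Lhasa White 1 and White Leghorn 2. In Lhasa White 2, Chahua 1 and 2 and White Leghorn 1 it was at 39.6, 33.6, 35.1 and 48.3 RPKM. The sides did not overlap, and the means of 80.8 ± 12.98 and 39.2 ± 6.62 RPKM (SD, n = 4 each) gave a ratio of 2.06 (limma adjusted p = 0.0103 for a log2 difference of 1.03, SE 0.152).

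XRCC4, the partner of DNA ligase IV in end joining, was at 11.4, 10.2, 10.03 and 10.8 RPKM in the W-negative libraries, named in the same order, and at 6.97, 5.42, 6.33 and 4.87 in the W-positive ones. No W-positive library came near the W-negative range, and the ratio was 1.80 (log2 difference 0.76, SE 0.126, limma adjusted p = 0.0207). APTX, aprataxin, which clears blocked ends after failed ligation, lay at 16.6, 18.9, 19.6 and 17.7 RPKM against 11.9, 9.35, 10.5 and 12.6. Its ratio was 1.64 without overlap (log2 difference 0.67, SE 0.118, limma adjusted p = 0.0278). FANCC, of the Fanconi anaemia core complex, had a ratio of 1.64 and did not pass (adjusted p = 0.178), although its sides did not overlap. RAD17, which loads a checkpoint clamp onto DNA, also had separate sides, at a smaller ratio of 1.30 (adjusted p = 0.774).

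Among the 4 metabolic genes, the ratios ran from above 1.5 to below 1. HSD17B4 was at 34.3, 38.7, 42.7 and 41.95 RPKM in the W-negative and at 26.5, 24.8, 29.0 and 24.3 in the W-positive libraries. The sides did not overlap (ratio 1.51, log2 difference 0.57, SE 0.106, limma adjusted p = 0.0372). ACO1, the cytosolic aconitase that also acts as an iron-regulated RNA-binding protein, went the other way at a small difference. It lay at 16.8, 12.3, 16.3 and 16.6 RPKM in the W-negative and at 17.6, 17.5, 17.1 and 17.1 in the W-positive libraries, again without overlap (ratio 0.894, log2 difference -0.16, SE 0.115, adjusted p = 0.92). OXCT1, which lets the heart use ketone bodies, and NNT, a mitochondrial source of NADPH, were the most abundant members, with ratios of 1.08 and 1.12 and overlapping sides. ACO1, OXCT1 and NNT did not pass.

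**Figure D3:**
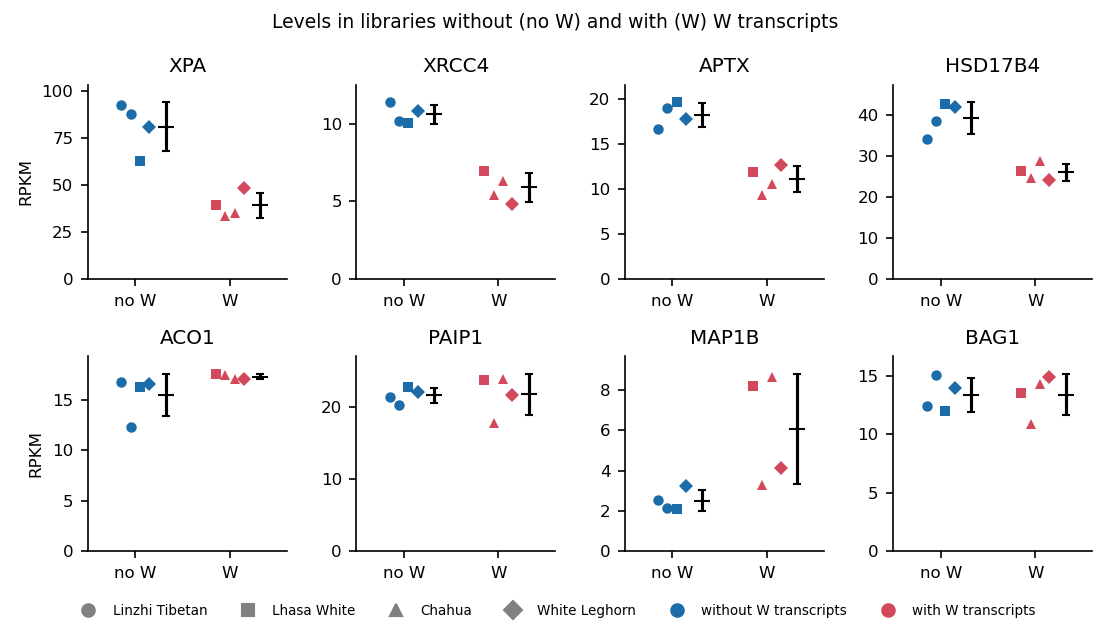
RPKM (y axis) of 8 listed genes in W-negative (no W) and W-positive (W) libraries, with mean and SD beside the points (n = 4 each). XPA, XRCC4, APTX and HSD17B4 separate the sides, ACO1, PAIP1 and BAG1 lie at nearly the same level, and MAP1B is highest in Lhasa White 2 and Chahua 2.

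The list marks 9 genes as having a W-linked copy, from general knowledge of the chicken sex chromosomes. Of these, 3 had a row under the listed symbol. All 3 were higher in the W-negative libraries without overlap, as were 34.0% of other Z-linked genes and 2.23% of all genes. By the limma test 0 passed (3 at an unadjusted p under 0.05, against 5.66% of all genes, and 0 with voom). VCP, an ATPase that extracts proteins for degradation, was at 74.7, 80.5, 88.8 and 102.9 RPKM against 63.8, 57.6, 39.4 and 60.7, with a ratio of 1.57 (adjusted p = 0.189). UBE2R2, a ubiquitin-conjugating enzyme, was at 30.8, 33.4, 38.6 and 36.7 RPKM against 22.5, 23.8, 21.3 and 27.0, with a ratio of 1.47 (adjusted p = 0.0688). GOLPH3, a Golgi membrane protein, was at 24.5, 24.8, 21.3 and 21.1 RPKM against 18.5, 13.8, 15.95 and 16.1, with a ratio of 1.42 (adjusted p = 0.141). Their median log2 difference was 0.54, beside 0.21 for the 27 rows not so marked. Whether reads of the W copies were counted in these rows was not tested.

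Some of the 11 symbols without a row were present under an older name of the gene in the GRCg7b table, and these rows are not counted among the members. MADH2, an older name of SMAD2, the TGF-beta signal transducer with a W-linked copy, passed as higher in W-negative libraries. It was at 23.1, 22.6, 26.5 and 23.8 RPKM against 17.3, 13.7, 17.1 and 13.4, a ratio of 1.56 (log2 difference 0.62, limma adjusted p = 0.0449). CHDZ, the chromatin remodeller CHD1 with a W-linked copy, had a row with a ratio of 1.68 and overlapping sides (adjusted p = 0.284), and a second row under the filter. The second CHDZ row went the other way without overlap, at low values. It was at 0.101, 0.0931, 0.142 and 0.130 RPKM in the W-negative and 0.475, 0.313, 1.93 and 0.967 in the W-positive libraries. GP130, the interleukin-6 family receptor subunit IL6ST, had a ratio of 1.33 (adjusted p = 0.917), and CKI, given as an older name of the galactosyltransferase B4GALT1, one of 1.32 (adjusted p = 0.393). VLDL, the lipoprotein receptor VLDLR, was near equal at a ratio of 0.928 (adjusted p = 0.984). SMAD7, TGFBR1, KDM4C, NIPBL, RASA1 and ZFR are not analysed here.

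Of the 7 chromatin and transcription genes, 5 were higher in W-negative libraries and 0 passed, with a median log2 difference of 0.14. SMC2, a condensin subunit that compacts chromosomes, was at 23.6, 39.3, 47.6 and 48.1 RPKM in the W-negative and 24.2, 22.8, 16.8 and 27.4 in the W-positive libraries. Linzhi Tibetan 1 lay within the W-positive range, and the ratio of 1.74 had a wide error (log2 difference 0.74, SE 0.23, adjusted p = 0.423). The blood markers (2 of 4 with a row) summed to 4789, 17980.5, 20365 and 13359 RPKM in the W-negative libraries. In the W-positive ones they summed to 8552, 6714, 6886 and 15853 RPKM. The part of these markers in the SMC2 values was not tested. PSIP1, a transcriptional coactivator, had separate sides at a ratio of 1.16. The transcription factor NFIL3 had a ratio of 1.24, SMARCA2, an ATPase of SWI/SNF remodelling complexes, 1.09, the ubiquitin ligase UHRF2 1.08 and the transcription factor NFIB 1.02. These 4 overlapped between the sides.

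MLLT3, a reader of acylated histones in transcription elongation, was low throughout, at 0.594, 0.676, 0.744 and 0.764 RPKM in the W-negative and 3.17, 0.401, 1.78 and 0.747 in the W-positive libraries. It stood apart in Lhasa White 2 and Chahua 2 alone, with 12 to 105 reads per library. Only these libraries, both W-positive, reached 1 RPKM, so the row passed the filter through the side where it was high. Its place among the lower rows therefore rests in part on the filter. MAP1B, a microtubule-associated protein of nerve cells, was also highest in Lhasa White 2 and Chahua 2. It was at 2.51, 2.15, 2.10 and 3.22 RPKM in the W-negative libraries and at 8.19, 3.29, 8.66 and 4.15 in the W-positive ones. All W-positive libraries were above all W-negative ones, by little in Chahua 1 and White Leghorn 1 (ratio 0.411, log2 difference -0.94, SE 0.27, adjusted p = 0.324). Without Lhasa White 2 and Chahua 2 the log2 difference was -0.44 for MAP1B and 0.11 for MLLT3. The atrial markers (5 of 7 with a row) summed to 1384 to 2810 RPKM in W-negative and 1648 to 3593 in W-positive libraries, mostly NPPA. The arterial wall and smooth muscle markers (3 of 4) summed to 93.7 to 138 and 96.9 to 1536 RPKM, highest in Lhasa White 2. The fibroblast and matrix markers (4 of 6) summed to 845 to 1283 and 1142 to 2749 RPKM, with 2749 in Lhasa White 2 and 1214 in Chahua 2. Within them DCN was at 722 and 512 RPKM in these libraries, against 227 to 309 in the others. LUM was at 113 and 73.5, against 42.4 to 57.8. COL1A2 was at 1131 RPKM in Lhasa White 2 but 297 in Chahua 2, against 336 to 692 in the others. COL3A1 was at 783 and 331, against 238 to 509. Of these 3 lists, 0 rows were at 0. The part of these markers in the MAP1B and MLLT3 values was not tested.

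Of the 6 rows for receptors, kinases and signalling, 3 were higher and 3 lower in W-negative libraries, with a median log2 difference of 0.14, and 0 passed the limma test (0 at an unadjusted p under 0.05, and 0 with voom). GHR, the growth hormone receptor, had 2 rows that disagreed. The abundant row (ENSGALG00000014855) was at 26.35, 17.3, 21.0 and 14.7 RPKM against 33.3, 15.3, 24.5 and 14.1, a ratio of 0.911, with full overlap. The scarce row (ENSGALG00000008411) was at 1.65, 1.57, 1.31 and 0.672 RPKM against 0.690, 0.486, 0.667 and 1.31, a ratio of 1.64 at 7 to 29 reads per library. Of the W-positive libraries only White Leghorn 1 reached 1 RPKM, so the row needed W-negative libraries to pass the filter. Whether both rows belong to one gene is not stated in the table. RICTOR, a core part of mTOR complex 2, had a ratio of 1.65 and PIK3R1, a regulatory subunit of phosphoinositide 3-kinase, one of 1.42, both with Chahua 2 among the high libraries and overlapping sides. JAK2, the kinase downstream of GHR and PRLR, was at 4.35, 5.11, 3.21 and 2.39 RPKM against 4.06, 2.51, 9.33 and 3.34. Chahua 2 alone was high, and the log2 difference of -0.19 was 0.25 without Lhasa White 2 and Chahua 2. DAB2, an endocytic adaptor, had a ratio of 0.937. PRLR was at 0.01705 to 0.193 RPKM, under the filter, at most 11 reads in a library, and the scarce GHR row was the member nearest to the filter above it.

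The remaining members had ratios on both sides of 1. PAIP1, which assists translation through the poly(A)-binding protein, had a ratio of 0.993, and SKP2, an F-box protein that targets cell cycle inhibitors, one of 1.02. The log2 differences were 0.00 (SE 0.114) and 0.04 (SE 0.13). RCL1, of ribosomal RNA processing, was between these and the repair genes, with separate sides at a ratio of 1.27 (adjusted p = 0.492). ARRDC3, an arrestin-like adaptor, was at 15.7, 8.25, 9.55 and 8.42 RPKM against 9.91, 6.44, 8.42 and 6.05, a ratio of 1.36, and only Linzhi Tibetan 1 stood above the W-positive range. BAG1, a co-chaperone on chromosome 2, was at 13.4 ± 1.43 and 13.4 ± 1.79 RPKM (SD, n = 4 each), a ratio of 0.998. INVS, a cilium protein on chromosome 2, was at 2.53, 1.86, 1.99 and 1.22 RPKM against 2.92, 2.65, 3.28 and 1.38, a ratio of 0.744 with overlap. Neither of these passed, and neither showed the excess seen for most members on Z.

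Within Lhasa White and White Leghorn, a W-negative and a W-positive library of the same breed could be set side by side, with 1 library a side and so no test within a breed. The median ratio over the 30 rows was 1.24 for Lhasa White 1 over 2 and 1.23 for White Leghorn 2 over 1. It was 1.36 and 1.32 for other Z-linked genes, and 0.960 and 0.972 for autosomal genes. At 1.5 or more stood 8 rows in Lhasa White and 7 in White Leghorn, where the shares over all genes were 7.39% and 4.21%, and 4 rows did so in both. The W-negative library was higher in both breeds for 17 rows, lower in both for 5 and opposed for 8. Over all genes 21.2% were higher in both, and over other Z-linked genes 69.6% were. Opposed were 45.0% of all genes and 20.6% of other Z-linked genes.

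XPA had ratios of 1.58 and 1.67 in Lhasa White and White Leghorn, HSD17B4 1.61 and 1.73, SMC2 1.97 and 1.76 and RICTOR 2.0 and 2.13. XRCC4 stood at 1.44 and 2.22, APTX at 1.64 and 1.4, FANCC at 1.89 and 1.47, VCP at 1.39 and 1.70 and UBE2R2 at 1.71 and 1.36. All of these were above 1 in both breeds. The widest opposed pairs were MLLT3 (0.235 and 1.02), both GHR rows (1.89 and 0.511 for the scarce row, 0.631 and 1.05 for the abundant one) and ARRDC3 (0.963 and 1.39). A limma test of the difference between the breeds had to assume that these lone libraries vary like the pairs of the other breeds. It called 0 of 30 rows (0 at an unadjusted p under 0.05, against 2.41% of all genes), which does not show that the breeds act alike. With breed as a block, which takes the contrast from these 2 breeds, the median log2 difference was 0.28. In it 21 of 30 rows were above 0, where 42.0% of all genes were. In that limma fit 0 members passed (8 at an unadjusted p under 0.05, against 3.77% of all genes), and the shares of all genes called were 0.0% higher and 0.225% lower. For XPA that fit gave 0.69 (log2 difference, SE 0.133, adjusted p = 0.284).

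**Figure D4:**
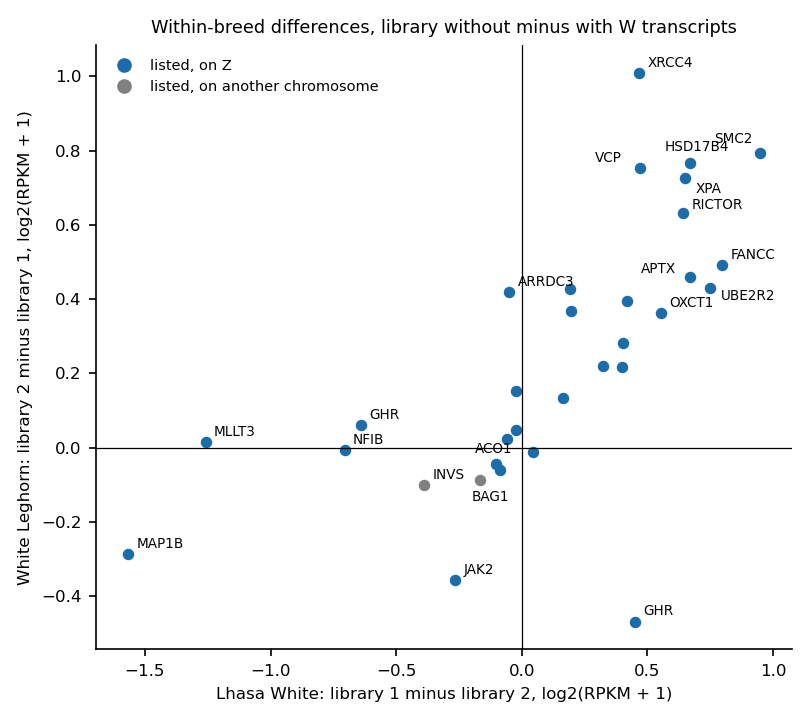
Log2 difference between the W-negative and the W-positive library in Lhasa White (x axis) and White Leghorn (y axis) for each listed gene. The 17 Z-linked rows higher in both breeds are in the upper right, and MAP1B and MLLT3 lie far to the left at -1.57 and -1.26 in Lhasa White.

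The tested Z-linked genes were put in their GRCg7b order, used only to say which genes are neighbours, and each member was set beside the 5 tested genes on either side. For 12 rows the median log2 difference of the neighbours was under 0.2, a limit chosen after the values were seen. These were OXCT1, both GHR rows, PAIP1 and NNT in one stretch and MAP1B, SMARCA2, RCL1, JAK2, UHRF2, NFIB and PSIP1 in another. For the other 18 the neighbours' median was 0.30 to 0.63. Some windows hold other members, such as both GHR rows or RCL1 and JAK2, so members and neighbours are not independent. Members did not always resemble their neighbours.

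In the second stretch the neighbours of SMARCA2 and RCL1 had medians of -0.11 and -0.15, the lowest found beside a member. Of the 10 bins of equal gene number along Z, the fifth, which holds MAP1B to MLLT3, had the lowest median, at 0.13 over 46 genes, and the others had 0.28 to 0.50. Without Lhasa White 2 and Chahua 2 the medians were 0.28 in that bin and 0.45 to 0.57 in the others. Among those lower than their neighbours were MAP1B (-0.94 beside neighbours at 0.06), ACO1 (-0.16 beside 0.41) and MLLT3 (-0.45 beside 0.39). So were DAB2 (-0.09 beside 0.40), SKP2 (0.04 beside 0.43), RAD17 (0.31 beside 0.50) and the abundant GHR row (-0.08 beside 0.16). Of these, MLLT3 passed the filter only through W-positive libraries. Among those above their neighbours were XPA (1.03 beside 0.41), APTX (0.67 beside 0.33) and FANCC (0.62 beside 0.30). RCL1 (0.33) and the scarce GHR row (0.36) were above neighbours at -0.15 and 0.15. That GHR row needed W-negative libraries to pass the filter.

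**Figure D5:**
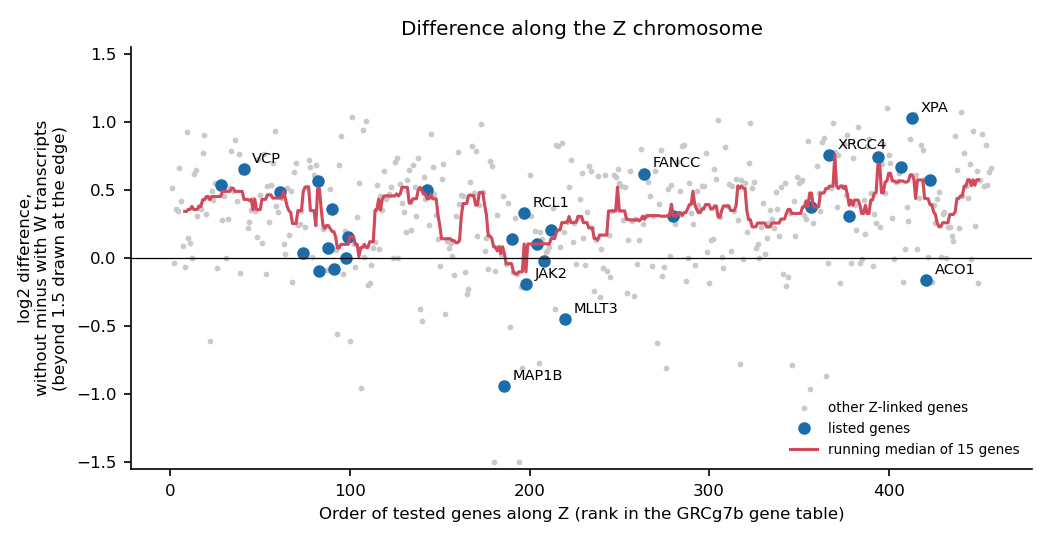
Log2 difference between W-negative and W-positive libraries (y axis) of each tested Z-linked gene in its order along the chromosome (x axis, rank), with a running median of 15 genes. The running median falls below 0 around SMARCA2 and RCL1. It also dips from OXCT1 to beyond NNT, and is lowest there at rank 105.

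By level, the median ratio of mean RPKM, which carries no pseudocount, was 1.27 for other Z-linked genes under a mean of 5 RPKM, 1.4 from 5 to 20 and 1.48 at 20 or more. For the members it was 1.30, 1.27 and 1.14 over 7, 11 and 12 rows, and neither order was tested. In falling order of mean RPKM, the most abundant members were OXCT1, NNT, VCP, XPA and SMARCA2. Their ratios were 1.08, 1.12, 1.57, 2.06 and 1.09.

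The study's design text concerns highland populations, and the breeds taken as highland were compared with the others. Here 3 of 4 highland and 1 of 4 lowland libraries were W-negative. Of the 30 rows, 26 were higher in highland breeds, where 58.0% of all genes were. Their median log2 difference was 0.22, against 0.23 for other Z-linked and 0.02 for autosomal genes. By limma 0 members passed (2 at an unadjusted p under 0.05, against 3.13% of all genes, and 0 with voom), where the shares of all genes called were 0.0% higher and 0.00865% lower. GOLPH3 had the smallest p, at 24.5 and 24.8 (Linzhi Tibetan) and 21.3 and 18.5 RPKM (Lhasa White), against 13.8 and 15.95 (Chahua) and 16.1 and 21.1 RPKM (White Leghorn). White Leghorn 2, which is W-negative, lay within the highland range, and the log2 difference was 0.40 (SE 0.121, adjusted p = 0.999). With the presence of W transcripts as a covariate, 21 of 30 members were above 0, where 59.8% of all genes were. In that fit the median was 0.10 for the members, 0.03 for other Z-linked genes and 0.04 for autosomal genes, and GOLPH3 stood at 0.26. With 2 libraries per breed and this overlap, breed and W transcripts cannot be fully told apart.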

How the data were processed

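Per the labels' protocols, TRIzol was used for extraction and libraries were made with Illumina's mRNA-Seq kit. The authors deposited RPKM values for 15873 Ensembl gene identifiers in 8 libraries, per the file headers. The aligner BWA appears in the submitters' processing notes. Build, gene models, counting, filters and strand are not given in those sources, so reads shared by near-identical copies, such as Z and W copies, cannot be told apart.

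The members and lists were chosen with earlier results of these data known. Breed came from the labels, and the division by W transcripts from the rule that defines the members. Library totals were recovered from the RPKM steps, and 100% of genes gave whole reads within at most 0.05 reads. The median tested gene had 456 reads per library. The GRCg7b gene table gave a chromosome, matched on symbol, for 12220 rows, 936 of them by an older symbol, and no coordinates are given because the build of the values is not stated.

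The 11556 genes that reached 1 RPKM in 2 or more libraries were fitted as log2(RPKM + 1) with limma 3.58.1 under R 4.3.3 (variance trend, two-sided, Benjamini-Hochberg over all genes). The W contrast had 1 mean per side, and the highland contrast 1 mean per breed. The test of the difference between Lhasa White and White Leghorn, the bins along Z, the ratios by level and the comparison of neighbours were added after seeing the data. The procedure was run on simulated data with independent noise and 200 genes changed in random directions. That setting holds no shift of a whole chromosome and no overlap with breed, so nothing is drawn from it here. Python 3.11.15, pandas 2.3.3 and matplotlib 3.10.9 were used for tables and plots. Values in every library are given for the 4 largest and 4 smallest differences, members with a W copy, opposed within-breed pairs, the smallest highland p and the members nearest the filter. ACO1, HSD17B4 and the rows under older symbols were added after their values were seen. Alternatives were another scaling, pseudocount, filter or variance model, voom on recovered reads, blocks, and leaving out libraries.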

Additional observations from a re-analysis of the deposited data

Results flagged for a closer look

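In each side of 4 libraries, a member was marked where its highest or lowest library stood apart from the other 3 by more than Dixon's critical gap. Chance marks about 1 in 20 groups, and 3 of 64 were marked. NNT lay at 110.3 RPKM in Linzhi Tibetan 1, against 151.3 to 158.2 in the other W-negative libraries. NNT also lay at 164.4 RPKM in Chahua 2, against 115.5 to 118.9 in the other W-positive libraries. ACO1 lay at 12.33 RPKM in Linzhi Tibetan 2, against 16.31 to 16.76 in the other W-negative libraries.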

How the results depend on the processing

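The members' median W difference stayed above 0 in every setting run and ran from 0.23 to 0.31 when 1 library was left out. With each library left out in turn, 35 to 83 genes passed as higher and 36 to 46 as lower in W-negative libraries, 29 to 70 of the other Z-linked genes and 0 to 3 of the members passed as higher, and the median of the other Z-linked genes was 0.30 to 0.47. The abundant GHR row ranged from -0.25 to 0.15 and JAK2 from -0.39 to 0.13. Without Lhasa White 2 and Chahua 2, the libraries with raised MYH7, 28 of 30 members were above 0. So were 56.9% of all genes, against 45.4% with all libraries. In that fit 1 member (XRCC4) and 52 of all genes passed as higher. The log2 differences were 0.97 for XPA, 0.69 for APTX and 0.66 for HSD17B4. The median was 0.34 for the members and 0.50 for the other Z-linked genes, and the abundant GHR row (0.38), JAK2 (0.25) and MLLT3 (0.11) changed sign. With breed as a block, 0 genes passed as higher, members and other Z-linked genes included, 26 passed as lower, and the scarce GHR row stood at -0.00996. Voom on the recovered reads called 2 members, among 70 of all genes called higher. It gave a median of 0.34 for the members and 0.48 for the other Z-linked genes. With a mean of at least 5 RPKM, 18 genes passed as lower, over fewer genes tested, and these medians were 0.31 and again 0.48. With a pseudocount of 0.1 they were 0.34 and 0.47. Scaling to the autosomal median added GOLPH3 to the members called, for 5, among 98 of all genes called higher. The replicate numbers did not pair the libraries (correlations of deviations between -0.33 and 0.17). The replicate block called 2 members, among 57 of all genes called higher. In the highland contrast, 1 gene was called lower, and 0 without the filter, without Lhasa White 2 and Chahua 2, with voom, with the replicate block or with W transcripts as a covariate, and 0 to 1 with a library left out. For calls that changed, the cause was not tested. Depth limits the members at few reads, such as MLLT3 and the scarce GHR row.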

Other observations

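Of the 73 genes called higher in W-negative libraries, 64 were placed on Z, 1 on W and 0 on an autosome. The other 8 had none of these placements. The placement on W was by symbol and is doubtful, because that row was higher where W transcripts were nearly absent. Of all 11556 tested genes, 457 were placed on Z. Among the other Z-linked genes with a mean of at least 5 RPKM, TUSC1 had the largest log2 difference, with 22.3 to 26.2 RPKM in W-negative and 8.08 to 13.9 in W-positive libraries (1.11, SE 0.147, limma adjusted p = 0.00506). CCDC112 (1.07, adjusted p = 0.12) and gga-mir-2954, a Z-linked microRNA known in birds for higher expression in males (1.06, adjusted p = 0.168), followed without passing, although neither overlapped between the sides. The gga-mir-2954 row is next to XPA in the order along Z. Whether its reads, from mRNA libraries, are of the microRNA or of a longer transcript was not tested.

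At the other end, BTF3, part of a ribosome-associated complex, is on Z by its symbol, but its row was at 34.4 to 48.8 RPKM in W-positive and 0 to 0.439 in W-negative libraries. The BTF3 row was 1 of 32 with this pattern, as were the rows of HINTW, ATP5A1W and SPINW. The limits were 1 RPKM or more in every W-positive library and 5% or less of the lowest of these in every W-negative one. Of the 32 rows, 25 had no symbol, and 0 rows did the reverse. AK3, a mitochondrial adenylate kinase that neighbours RCL1, was at 16.5 to 23.8 RPKM in W-positive and 8.90 to 13.6 in W-negative libraries (-0.81, SE 0.162, adjusted p = 0.0593). NR2F1 reached 23.3 RPKM in Lhasa White 2, against 2.11 to 6.97 elsewhere (-0.96, adjusted p = 0.909). SLC1A1, a glutamate transporter chosen after its values were seen, was at 3.44 ± 0.721 RPKM in W-positive and 0.264 ± 0.0473 in W-negative libraries (SD, n = 4 each, limma log2 difference -1.80, adjusted p = 0.000451).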
